A study of Mus musculus with 2 samples.

Results

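The genes described here are the ligands of the tumour necrosis factor (TNF) superfamily and their receptors, as transcribed in cells prepared from mouse dorsal root ganglia (DRG), the clusters of sensory neuron cell bodies beside the spinal cord. They were taken by symbol, as every gene whose name begins with Tnfsf or Tnfrsf together with Tnf, Lta, Ltb, Ltbr, Fas, Fasl, Cd27, Cd70, Cd40, Cd40lg and Eda2r. The rule found 43 of the 24411 genes in the table, 18 ligands and 25 receptors, on 64 transcript rows. It used no measured value.

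Male C57BL/6J mice aged 6 to 8 weeks received intraperitoneal saline with 50% alum, an aluminium salt used as adjuvant, on days 0 and 14. In 1 group 100 µg of keyhole limpet hemocyanin (KLH), a foreign protein antigen, was added to both injections. The other group had alum without antigen, although its label also uses the word naïve. Thoracic and lumbar DRG were collected on day 28, digested with collagenase and dispase, passed over an albumin gradient, and depleted of B lymphocytes with magnetic beads. Cells of 10 mice were pooled into 1 RNA library per group, so there were 2 libraries and no replicate, and every difference between them is given as a value without a test. Levels are as TPM, the transcript's share of all transcripts in its library on a fixed total, a unit corrected for transcript length and summed here over the transcripts of a gene. A gene was counted as detected when this sum was above 3 TPM, the level the study itself used, although the study lists TPM per transcript. The study states a minimum sequencing depth for its libraries, but the TPM tables do not hold the reads behind each value, so no counting interval is given, and a gene without a value is described only as listed at 0.

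TNF superfamily ligands are mostly made as trimeric proteins anchored in the cell membrane, from which some are cut free. Their receptors fall into those with a cytoplasmic death domain, which can recruit caspases, those that bind TRAF adaptor proteins and lead to NF-kappaB, and decoys that bind a ligand without signalling. In the nervous system the family is known for neuron death, axon pruning and inflammatory pain, and in lymphoid tissue for the survival and help signals of B and T lymphocytes.

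A few receptors held most of the family's RNA. Above 3 TPM were 8 of 43 genes in the alum pool (18.6%) and 9 in the alum + KLH pool (20.9%). Among all genes the corresponding shares were 46.9% and 46.3%, and among genes with a protein-coding row 52.0% and 51.3%. The median member stood at 0.45 TPM with alum and 0.55 TPM with KLH, where the median of all genes was 2.15 and 2.00 TPM. The 8 detected in both pools were the receptors Tnfrsf21, Fas, Tnfrsf11a, Tnfrsf12a, Tnfrsf1a, Tnfrsf10b and Tnfrsf22 and the ligand Tnfsf10, and Tnfsf13 passed 3 TPM only with KLH. Receptors summed to 307.7 and 315.5 TPM, whereas the 18 ligands summed to 19.3 and 18.0 TPM. Without Tnfrsf21 the receptor sum was 98.0 and 91.0 TPM.

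**Figure D1:**
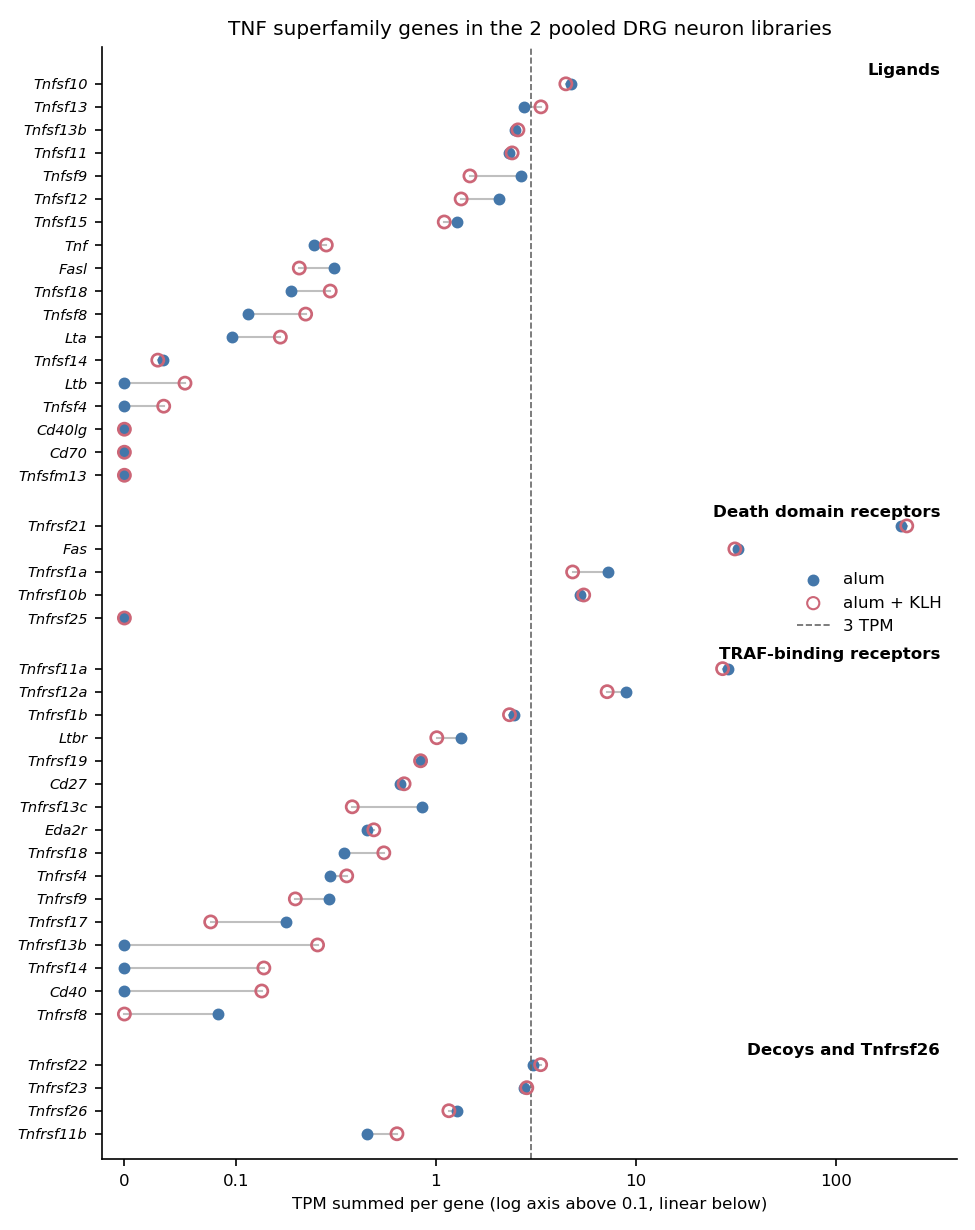
TPM summed per gene (x axis, logarithmic above 0.1 TPM and linear below) for each of the 43 superfamily genes, grouped by role, with 1 filled point for the alum pool, 1 open point for the alum + KLH pool and a dashed line at 3 TPM. Tnfrsf21 lies far to the right at 209.7 and 224.5 TPM, while 25 genes lie below 1 TPM in both pools.

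The cells that could carry these transcripts were checked with short marker lists. All 6 neuronal markers, 4 of 4 satellite glia markers and 5 of 5 Schwann cell markers were above 3 TPM in both pools, with sums of 11267 and 11118, 1335 and 1260, and 2169 and 2129 TPM. None of 7 macrophage markers and none of 5 B lymphocyte markers reached 3 TPM, the B lymphocyte list summing to 1.55 and 0.999 TPM. Among 5 T lymphocyte markers Cd3d stood at 2.97 and 3.13 TPM and Cd3g was listed at 0. Of 4 fibroblast markers 2 passed 3 TPM, Dcn at 63.8 and 62.6 TPM and Lum at 11.2 and 13.2 TPM, and 1 of 4 endothelial markers did, Cdh5 at 3.79 and 3.15 TPM. The neutrophil markers S100a8 and S100a9 differed between the pools and are given further on. The library label names neurons, but RNA of glia, fibroblasts and other cells is present too, and in bulk RNA fewer cells of a type cannot be told apart from less RNA per cell. No member can be assigned to 1 of these cell types from the TPM tables.

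Death domain receptors were the best represented class, with 4 of 5 above 3 TPM in both pools. Tnfrsf21 (death receptor 6; chr17:43016555-43089188, plus strand, mm10), known for its part in axon pruning, stood at 209.7 TPM with alum and 224.5 TPM with KLH. Only 4.15% and 3.87% of all genes were higher, and this gene alone held 64.1% and 67.3% of the TPM of the family. It was 6.48 and 7.22 times as abundant as Fas, the second member. Fas (chr19:34290647-34327775, plus strand), the classical death receptor, stood at 32.4 and 31.1 TPM. Tnfrsf1a (chr6:125349723-125362483, plus strand), the widely expressed TNF receptor, stood at 7.23 and 4.82 TPM, and Tnfrsf10b (chr14:69767472-69784411, plus strand), the mouse receptor for TRAIL that carries a death domain, at 5.25 and 5.47 TPM. The remaining death domain receptor, Tnfrsf25, the receptor for TL1A, was listed at 0 in both pools. All levels in this class but that of Tnfrsf25 therefore exceeded the study's detection level in each library.

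Fas was split over a pair of transcripts that predict very different proteins. The long form has 9 coding exons and 327 codons and took 25.2 TPM with alum and 25.4 TPM with KLH. A short form with 3 coding exons took 7.23 and 5.73 TPM, which is 22.3% and 18.4% of the gene. Its reading frame has 63 codons and stops in the part that encodes the extracellular region, before the exons for the membrane anchor and the death domain. The coding sequence of the short form is shown because it makes that end visible. It lies in 3 exons between positions 34290715 and 34309043 of chromosome 19, plus strand, mm10. The first 184 bases are those of the long form, and the capitals mark the last 8 bases, stop codon included, which the long form lacks.
Fas short form: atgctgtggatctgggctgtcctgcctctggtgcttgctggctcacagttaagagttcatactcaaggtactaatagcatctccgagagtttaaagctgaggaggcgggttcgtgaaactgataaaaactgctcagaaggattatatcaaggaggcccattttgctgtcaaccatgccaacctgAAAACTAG
The split was estimated by the authors' quantification program from reads some of which can fit both forms, and a short transcript has few positions for a read, so its TPM is less certain than the sum for the gene.

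Of the 16 receptors that bind TRAF proteins, 2 passed 3 TPM. Tnfrsf11a (RANK; chr1:105780673-105849444, plus strand), known best from osteoclast formation, stood at 28.9 TPM with alum and 27.0 TPM with KLH, close behind Fas in both. Tnfrsf12a (Fn14; chr17:23675445-23677449, minus strand), the receptor for TWEAK and a gene known to be induced in injured tissue, stood at 8.88 and 7.16 TPM. Next came Tnfrsf1b, the second TNF receptor, at 2.44 and 2.33 TPM and Ltbr, the lymphotoxin beta receptor, at 1.33 and 1.01 TPM. The other 12 were below 1 TPM in both pools.

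Those 12 include the receptors through which lymphocytes are helped and kept alive. Cd40, the receptor on B lymphocytes for T lymphocyte help, was listed at 0 with alum and stood at 0.135 TPM with KLH, summed over 5 transcript rows. The receptors for BAFF and APRIL were as low, with Tnfrsf13c (BAFF receptor) at 0.855 and 0.382 TPM, Tnfrsf13b (TACI) at 0 and 0.256 TPM and Tnfrsf17 (BCMA) at 0.179 and 0.0775 TPM. Costimulatory receptors of T lymphocytes were likewise low, with Cd27 at 0.662 and 0.694 TPM, Tnfrsf18 (GITR) at 0.347 and 0.549 TPM, Tnfrsf4 (OX40) at 0.297 and 0.359 TPM and Tnfrsf9 (4-1BB) at 0.292 and 0.199 TPM. The remaining 4 of the 12 were Tnfrsf19 (TROY), known from the nervous system, at 0.838 TPM in both pools, the ectodysplasin receptor Eda2r at 0.453 and 0.490 TPM, Tnfrsf14 (HVEM) at 0 and 0.138 TPM and Tnfrsf8 (CD30) at 0.0841 and 0 TPM. B lymphocytes had been removed from both preparations. Some of these genes overlap another gene on the opposite strand. Cd27 overlaps Vamp1, a neuronal gene at 488 and 545 TPM, and Tnfrsf9 overlaps Camta1 at 207 and 203 TPM. Of the 31-base words of Cd27 0.634% occur in any other gene, and of those of Tnfrsf9 0.405%. For Tnfrsf18 the share is 20.7%, all of it with Gm16008 on the opposite strand. The effect of these overlaps on the levels was not tested.

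Tnfrsf12a stood entirely on its shorter transcript. The form with 3 coding exons, of 282 coding bases, held all 8.88 and 7.16 TPM of the gene, and the form with 4 coding exons, of 387 coding bases and 129 codons, was listed at 0 in both pools. The coding sequences differ by exon 2, whose 105 bases (chr17:23676519-23676623, minus strand, mm10) encode 35 codons of the extracellular region. The exon is shown because it is the whole difference between the coding sequences. The transcripts are 640 and 984 bases long, so they also differ outside the coding bases. Capitals mark the codons TGC and TGT in the reading frame, which encode cysteine and of which exon 2 holds 5 of the 8 in the long form.
Tnfrsf12a exon 2: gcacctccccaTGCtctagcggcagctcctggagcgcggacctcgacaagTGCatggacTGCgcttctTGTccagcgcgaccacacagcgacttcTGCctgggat
A transcript listed at 0 in a table of estimates may have been given none of the reads it shares with another form, and the reads that span exon 2 were not analysed here.

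The 3 decoy receptors and the related Tnfrsf26 were all low. Tnfrsf22 (chr7:143634808-143649675, minus strand), a mouse decoy for TRAIL, stood at 3.04 and 3.33 TPM, just above the detection level. Its neighbour and close relative Tnfrsf23, also a TRAIL decoy, stood at 2.76 and 2.84 TPM, just below it. Of the 31-base words in the transcripts of Tnfrsf22, 34.5% also occur in Tnfrsf23, so reads could be divided between them in more than 1 way and the order of these neighbours is uncertain. Tnfrsf11b (osteoprotegerin), the secreted decoy for RANKL, stood at 0.451 and 0.639 TPM, and Tnfrsf26 at 1.27 and 1.16 TPM.

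Of the 18 ligands 1 passed 3 TPM with alum and 2 with KLH. Tnfsf10 (TRAIL; chr3:27317077-27339665, plus strand), a ligand that can start apoptosis, stood at 4.75 and 4.45 TPM. Tnfsf13 (APRIL; chr11:69682577-69685554, minus strand), a survival factor of plasma cells, stood at 2.75 TPM with alum and 3.34 TPM with KLH. Its first transcript row stood at 2.75 and 2.54 TPM, and a second row, near 0 with alum, stood at 0.81 TPM with KLH. Of the 31-base words of Tnfsf13, 69.4% also belong to the read-through gene Tnfsfm13, which joins it to Tnfsf12 and was listed at 0 in both pools. A further group lay between 1 and 3 TPM in both pools, with Tnfsf13b (BAFF), the survival factor of B lymphocytes, at 2.48 and 2.57 TPM, Tnfsf11 (RANKL) at 2.31 and 2.40 TPM, Tnfsf9 (4-1BB ligand) at 2.66 and 1.48 TPM, Tnfsf12 (TWEAK) at 2.06 and 1.34 TPM and Tnfsf15 (TL1A) at 1.28 and 1.10 TPM. The values of Tnfsf9 and Tnfsf12 were the ones in this group furthest apart between pools, and both were lower with KLH. Tnfsf9 overlaps Gm11110 on the opposite strand, and Tnfsf12 shares 49.7% of its 31-base words with Tnfsfm13.

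The remaining 11 ligands were below 1 TPM in both pools. Tnf stood at 0.247 and 0.284 TPM, Lta at 0.0971 and 0.167 TPM, Ltb at 0 and 0.0545 TPM and Fasl, the ligand of Fas, at 0.311 and 0.208 TPM. Cd40lg (CD40 ligand) and Cd70 (ligand of Cd27) were listed at 0 in both. Tnfsf18 (GITR ligand) stood at 0.188 and 0.297 TPM, Tnfsf8 (CD30 ligand) at 0.116 and 0.224 TPM, Tnfsf14 (LIGHT) at 0.0349 and 0.0300 TPM and Tnfsf4 (OX40 ligand) at 0 and 0.0353 TPM. The read-through gene Tnfsfm13 makes up the 11, and 14 of 25 receptors were likewise below 1 TPM in both pools.

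Setting each ligand beside its receptor showed which partners were present together. Of 26 listed pairs, Tnfsf10 with Tnfrsf10b was the 1 pair with both partners above 3 TPM in both pools. Of the 31-base words of Tnfrsf10b 16.3% also occur in other genes, with 6.51% in Gm15574, and of those of Tnfsf10 1.53% do. The effect of this shared sequence on the levels of the pair was not tested. In 5 pairs the receptor passed and the ligand did not. These were Fasl with Fas, Tnfsf11 with Tnfrsf11a, Tnfsf12 with Tnfrsf12a, and both Tnf and Lta with Tnfrsf1a. In 2 pairs the ligand passed and the receptor did not, namely Tnfsf10 with its decoy Tnfrsf11b and ectodysplasin (Eda), which the name rule leaves out, with Eda2r. The list does not pair Tnfsf10 with its decoy Tnfrsf22, although both were above 3 TPM in both pools. The other 18 pairs had neither partner above 3 TPM in both pools. The receptor was higher than its ligand in both pools in 13 of the 26 pairs. Fas was detected beside a ligand under 1 TPM, and Tnfrsf11a beside a ligand just under the detection level. RNA in a digested ganglion does not show which ligands reach these cells from elsewhere.

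**Figure D2:**
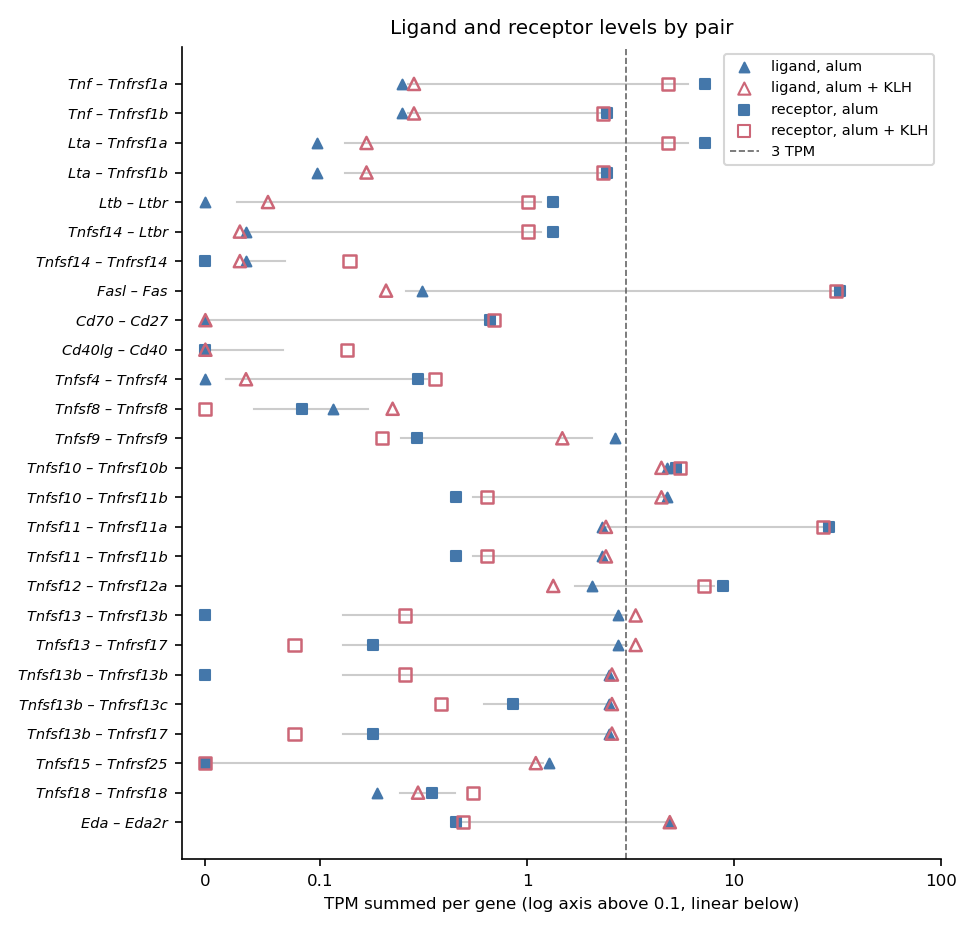
TPM of the ligand (triangles) and the receptor (squares) of each of 26 pairs (x axis, logarithmic above 0.1 TPM and linear below), filled for the alum pool and open for alum + KLH, with a dashed line at 3 TPM. Both symbols lie right of the line in 1 pair, Tnfsf10 with Tnfrsf10b, and the receptor alone does in 5.

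Many of these genes sit side by side in the genome. With a gap of at most 100 kb between neighbours, 23 of 43 members fell into 9 clusters and 20 stood alone. Of the clustered members 3 were above 3 TPM in at least 1 pool, among them Tnfsf13 with KLH only, and of those alone 6 were. Among all 24411 genes 11648 were. A link between position and level was not tested. The cluster of Tnf, Lta and Ltb on chromosome 17 held no gene above 0.284 TPM. On chromosome 6 Tnfrsf1a was detected beside Ltbr at 1.33 and 1.01 TPM and Cd27 at 0.662 and 0.694 TPM. Tnfrsf22 was detected beside Tnfrsf23 and Tnfrsf26 on chromosome 7, and Tnfsf13 beside Tnfsf12 on chromosome 11.

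The difference between the pools was taken by dividing TPM + 1 of the alum + KLH pool by TPM + 1 of the alum pool and taking the log2. With 1 pool per group, antigen, cell preparation and library cannot be told apart as its source. The added 1 TPM shrinks the ratio of low genes. Among the 9 members detected in at least 1 pool, 4 were higher and 5 lower with KLH, the median was -0.06 and the range -0.50 to 0.21. The upper end of this range is Tnfsf13, which passed 3 TPM only with KLH. The median of all 11648 genes detected in at least 1 pool was -0.02. No detected member was 1.5-fold apart in either direction. The background among all detected genes was 1.00% past 1.5-fold upward with KLH and 1.55% past it downward, and for 2-fold 0.695% and 0.944%, so a count of 0 among 9 members is not set apart from it. Of those 298 genes, 127 were at or under 0.01 TPM in 1 pool.

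Of the 9 detected members 6 had a log2 ratio that rounds to 0.10 or less in either direction. It was 0.10 for Tnfrsf21, -0.06 for Fas, -0.09 for Tnfrsf11a, 0.05 for Tnfrsf10b, -0.08 for Tnfsf10 and 0.10 for Tnfrsf22. The 500 genes nearest to Tnfrsf21 in abundance had a central 90% range of -0.20 to 0.16, and 34.6% of them were as far from 0. For Fas the range was -0.27 to 0.17 with 63.0% as far from 0, and for Tnfrsf11a -0.27 to 0.15 with 42.4%. Each of these receptors lay inside the spread of genes of like abundance.

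Tnfrsf1a was the detected member furthest apart. Its 7.23 TPM with alum and 4.82 TPM with KLH gave a log2 ratio of -0.50, where its 500 neighbours ranged from -0.42 to 0.26 and 4.0% were as far from 0. It was the 1 detected member outside this central range. Tnfrsf12a followed with -0.28, inside a range of -0.40 to 0.21. Tnfsf13, with 0.21, was the furthest in the other direction, and 44.6% of its neighbours were as far from 0. Tnfsf13 was in the detected set only through the alum + KLH pool, where it was higher. Its neighbours passed the same filter near the same level, so neither its direction nor that share is independent of the filter. Without the added 1 TPM Tnfrsf1a was 1.501 times as high with alum.

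**Figure D3:**
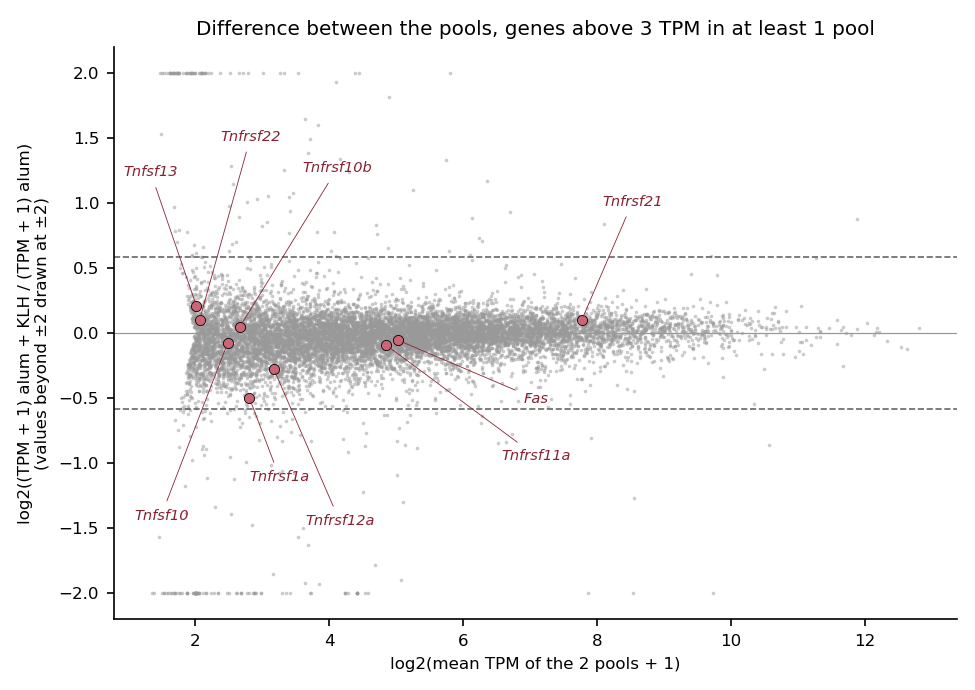
Log2 ratio of TPM + 1, alum + KLH over alum (y axis, values beyond 2 in either direction drawn at 2), against the log2 mean level of the pools (x axis) for 11648 genes, 1 grey point each, with dashed lines at 1.5-fold. The 9 detected superfamily genes, in red, all lie between the dashed lines, and Tnfrsf1a at -0.50 lies lowest.

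Guanine and cytosine (GC) content of the transcript moved with the difference between the libraries. All detected genes were ordered by GC content and cut into 10 bins of equal size, and the median log2 ratio went from 0.07 in the lowest bin to -0.13 in the last but one and -0.19 in the highest. Tnfrsf1a, with 55.9% GC, belongs to the last bin but one and lay at -0.37 relative to its median, and Tnfrsf12a, with 59.8%, belongs to the highest, where the same centring changed its ratio from -0.28 to -0.09. Fas, with 43.4%, and Tnfrsf11a, with 47.9%, belong to bins with medians of 0.04 and -0.01. The share of coding genes above 3 TPM in the alum pool did not fall steadily with GC content. It was 45.4% up to 41.0% GC, 63.1% between 45.6% and 47.6% GC and 29.0% above 58.0% GC. The 9 detected members had a median GC content of 48.9% and the other members 51.8%. The part of GC content in these levels and ratios was not tested beyond these values.

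**Figure D4:**
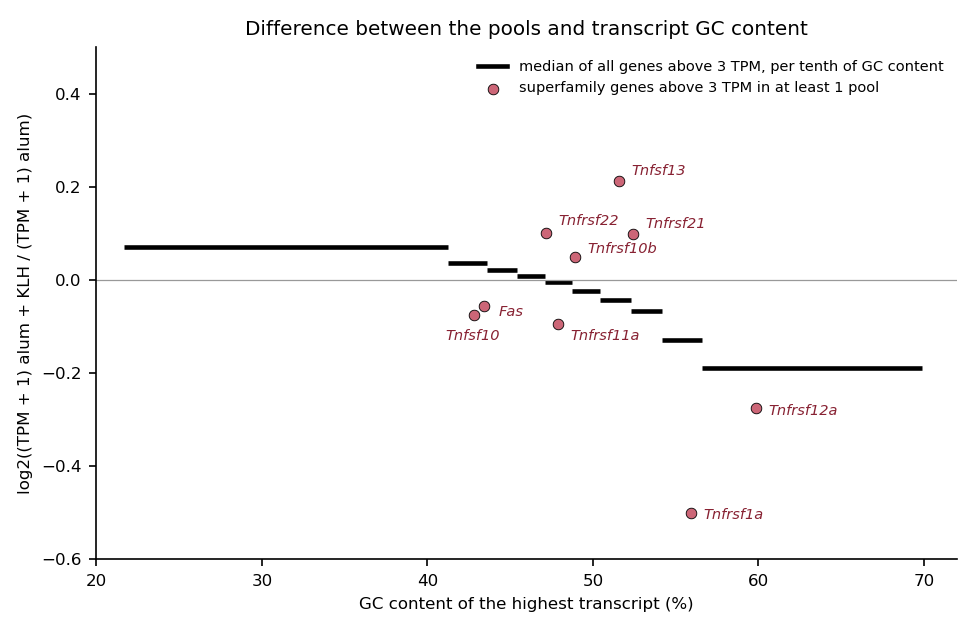
Log2 ratio of TPM + 1, alum + KLH over alum (y axis), against GC content of the highest transcript in percent (x axis). Black bars give the median of all detected genes in each of 10 bins of GC content and descend from 0.07 to -0.19, and red points give the 9 detected superfamily genes, of which Tnfrsf1a and Tnfrsf12a lie lowest.

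Markers of other cells also differed between the pools, beside the lower Tnfrsf1a with KLH. Both neutrophil markers with a row were lower with KLH, S100a8 at 32.3 and 4.59 TPM and S100a9 at 11.7 and 0.962 TPM, so that the list summed to 44.0 and 5.55 TPM. All 4 endothelial markers were lower with KLH, with sums of 10.1 and 7.24 TPM, but only 1 of them was above 3 TPM. Most other lists leaned the same way, with 4 of 4 satellite glia, 5 of 6 neuronal and 4 of 5 Schwann cell markers lower. Of all 11648 detected genes 6569 were lower and 5079 higher with KLH. Of 7 macrophage markers 4 were lower and 3 higher, with sums of 7.39 and 6.78 TPM. Their part in the level of any member was not tested.

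Of the receptors 28% passed in each pool, while signalling components of the pathway passed in shares nearer to those of all coding genes. Of 48 such genes, 5 of them sheddases and processing genes, 29 were above 3 TPM with alum (60.4%) and 28 with KLH (58.3%). Among genes with a protein-coding row the shares were 52.0% and 51.3%. The signalling list was chosen with earlier results of these data known, so its shares are given as a description only. Below 1 TPM in both pools were 9 of the 48. Among 12 adaptors 5 passed in both pools, led by the kinase Ripk1 at 32.8 and 28.5 TPM, Traf3 at 16.5 and 17.3 TPM, the necroptosis effector Mlkl at 13.96 and 14.2 TPM and Traf6 at 13.9 and 14.6 TPM. The adaptors of the death domain complexes were lower, with Tradd at 2.04 and 2.09 TPM, Fadd at 1.66 and 1.54 TPM and Traf2 at 1.54 and 1.59 TPM. Ripk3, the kinase upstream of Mlkl, stood at 0.42 and 0.27 TPM.

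In the caspase arm RNA of the inhibitor Cflar was higher than that of the initiator Casp8, which does not show how the proteins balance. Casp8, which death receptors recruit, stood at 1.503 and 1.69 TPM. Cflar, its inhibitory relative, stood at 55.1 and 53.1 TPM, and Bid, which links to mitochondria, at 29.8 and 27.8 TPM. Xiap, an inhibitor of caspases counted with the ubiquitin and kinase components, was the highest of the whole list at 152.0 and 157.6 TPM.

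Of 15 ubiquitin and kinase components 11 passed in both pools, among them Birc2 at 65.5 and 61.2 TPM. The IkappaB kinases Chuk, at 81.5 and 85.8 TPM, and Ikbkb, at 14.1 and 14.3 TPM, passed too. Map3k14, a kinase of the noncanonical NF-kappaB branch, stood at 0.25 and 0.30 TPM. Above the level were the NF-kappaB subunits Nfkb1 (15.6 and 13.8 TPM), Rel (13.8 and 13.8 TPM) and Rela (3.86 and 3.17 TPM). Nfkb2 at 0.96 and 1.04 TPM and Relb at 0.85 and 0.71 TPM were below it. Nfkb2 and Relb are the subunits of the noncanonical branch, whose genes were not counted as a set, so these low levels do not describe the branch as a whole. Map3k14, Nfkb2 and Relb have 58.7%, 59.3% and 61.2% GC, and Rela, which passed, has 59.4%. Above 58.0% GC 29.0% of coding genes passed in the alum pool. Of 7 brakes on the pathway 6 passed with alum and 5 with KLH, led by the deubiquitinase Cyld at 50.7 and 54.1 TPM, Nfkbia at 22.2 and 22.8 TPM and Tnfaip3 (A20) at 13.7 and 12.8 TPM. The proteases that release TNF family proteins from the membrane were also present, with Adam10 at 94.1 and 96.1 TPM and Adam17 at 21.0 and 21.1 TPM, while the Adam17 partners Rhbdf1 and Rhbdf2 were below 1 TPM.

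Of the 29 signalling genes detected in at least 1 pool 15 were higher and 14 lower with KLH, the range of the log2 ratio was -0.22 to 0.12, and none was 1.5-fold apart.

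**Figure D5:**
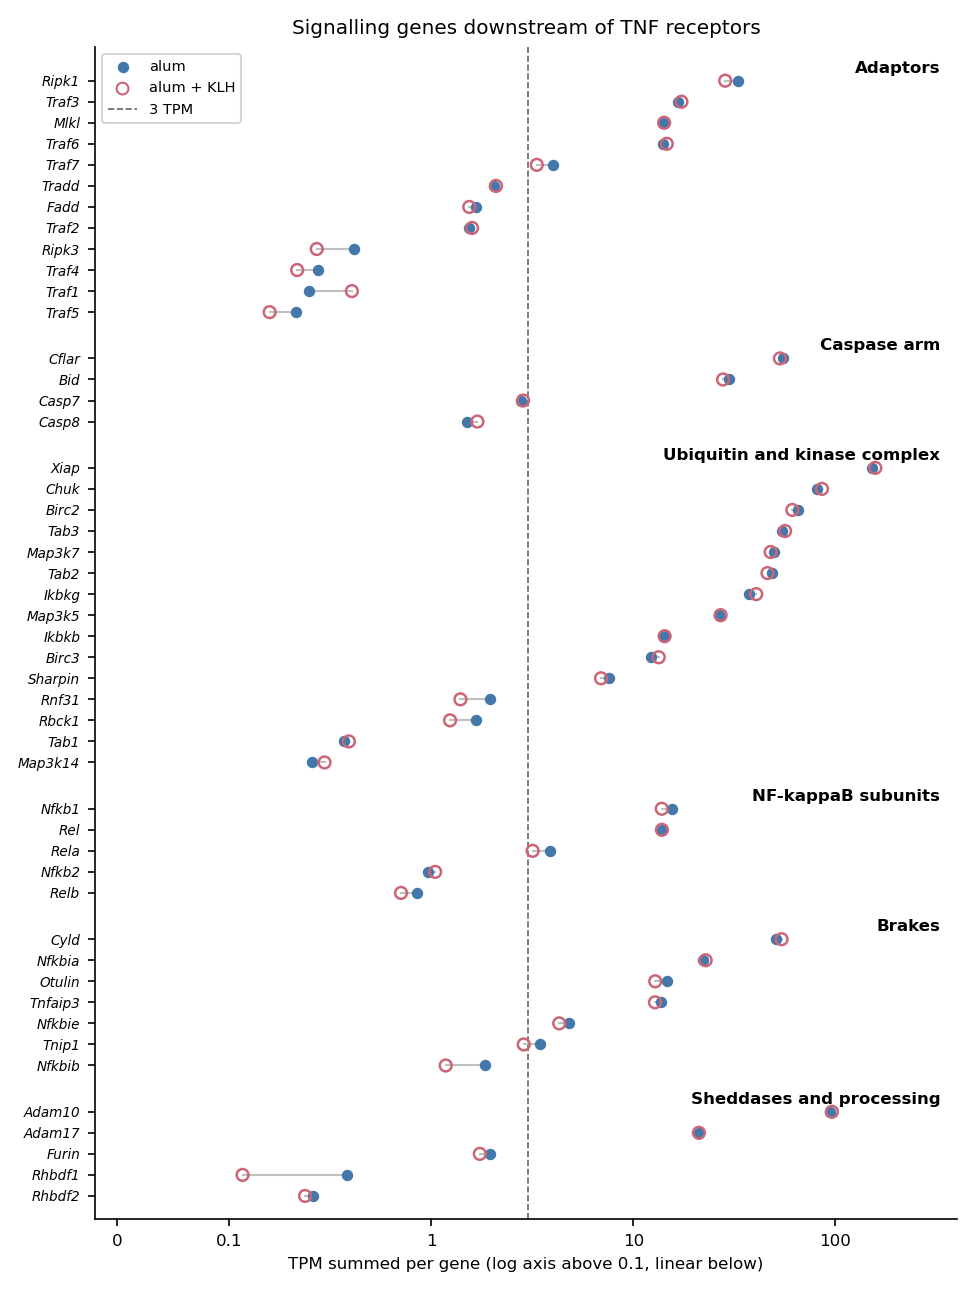
TPM summed per gene (x axis, logarithmic above 0.1 TPM and linear below) for 48 signalling genes in 6 groups, filled points for the alum pool and open points for alum + KLH, with a dashed line at 3 TPM. The points of a gene lie close together above 3 TPM, and Casp8, Fadd, Tradd, Nfkb2, Relb and Map3k14 lie left of the line.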

How the data were processed

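RNA was sequenced from 1 pooled DRG library per group. The authors prepared stranded mRNA libraries, trimmed paired reads with cutadapt, estimated TPM per RefSeq transcript with kallisto on mm10 and deposited 1 TPM table per library. Tool versions are not given in the sources used here. The deposited TPM sum to 1000000 in each library. TPM was summed per gene, and the log2 ratio used TPM + 1. Python 3.11.15 with pandas 2.3.3 and numpy 2.4.6 was used, and the calculation was checked on simulated data.

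Each detected member was set beside the 500 detected genes nearest in mean TPM. Coordinates, exons, GC content and sequences came from the GENCODE annotation of GRCm38, the assembly called mm10, through its RefSeq matches, and every member had a GC value. Shared sequence was the share of 31-base words of a gene found in other genes. Members, pathway genes, pairs and markers were chosen with earlier results of these data known, and 1 pathway gene is not reported here. Genes were named when above 3 TPM in either pool, furthest apart between pools, or standing for a role. With 1 library per group no test, p-value or error was possible. Other settings tried were detection at 1 or 10 TPM, no filter on low values and an added 0.1 or 0.5 TPM. The highest transcript in place of the sum and scaling by the median ratio were tried too. No pseudocount and centring on the median of genes of like GC content were chosen after seeing the data.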

Additional observations from a re-analysis of the deposited data

How the results depend on the processing

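The number of members detected depended on the threshold. At 1 TPM 18 members passed with alum and 18 with KLH, and at 10 TPM 3 and 3, in place of 8 and 9 at 3 TPM. With the highest transcript of each gene in place of the sum, 8 passed 3 TPM with alum and 8 with KLH. Pairs with both partners above the threshold in both pools numbered 3 at 1 TPM and 0 at 10 TPM, in place of 1. With no pseudocount, an alternative chosen after seeing the data, 1 of the 9 detected members, Tnfrsf1a, was at least 1.5-fold lower with KLH in place of 0. The log2 ratio of Tnfrsf1a ranged from -0.59 to -0.37 over 6 alternatives and was negative in each, and that of Tnfrsf12a from -0.31 to -0.09, the latter after centring on GC content. The sign differed only for Fas and Tnfsf13 among the 9 detected members, with 0.01 and -0.08 from the highest transcript alone. The median over the detected members ranged from -0.09 to -0.03. Without the filter on low values, the median over all 43 members was 0. No paired analysis was possible because each group is 1 library without a replicate number, and for the same reason no replicate could be left out. Without read counts, no counting error can be given for values below 3 TPM.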

Other observations

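The name rule leaves out some members of the superfamily that carry other symbols. Ngfr, the p75 neurotrophin receptor, stood at 87.9 TPM with alum and 75.7 TPM with KLH, a level between Tnfrsf21 and Fas. Its log2 ratio of TPM + 1 was -0.21, and 7.4% of the 500 genes nearest in abundance were as far from 0. Ngfr has 58.6% GC, in the range where the median ratio of all detected genes was lowest. Relt stood at 1.63 and 1.90 TPM, and Edar, the other ectodysplasin receptor, was listed at 0 with alum and at 0.0146 TPM with KLH.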
